A study of Mus musculus with 4 samples.

Results

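The 10 genes described here encode core and naive pluripotency transcription factors of mouse embryonic stem (ES) cells: *Pou5f1*, *Sox2*, *Nanog*, *Esrrb*, *Tfcp2l1*, *Tbx3*, *Klf2*, *Klf4*, *Klf5* and *Zfp42*. They were taken by gene symbol from the 24054 genes of the count tables, and all 10 were present and had enough counts to be tested. RNA-seq libraries were made from 1 wild-type ES cell culture, of line wt26, and from 3 Morc3 rescue lines, T131-3C, T131-3D and T131-3M (3C, 3D and 3M below). Each rescue line is a single clone, and all of them were picked from 1 Morc3 ko clone of the wt26 background after a PiggyBac vector had put back Morc3 under the human PGK promoter, joined by a self-cleaving peptide to a puromycin resistance. The clones therefore share the ko of the endogenous gene, the clonal history of that ko line and the puromycin selection, and wild type shares none of these. All 4 cultures were grown without feeders on gelatin in serum and LIF. The ko line itself was not analysed here, so the comparison sets cells that lost Morc3 and regained it against cells that never lost it.

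Pou5f1 and Sox2 bind DNA as a pair and are needed for pluripotency as such, in the naive state and after it. Nanog, Esrrb, Tfcp2l1, Tbx3, Klf2, Klf4 and Klf5 form a network around this pair that is fed by LIF and Stat3 signalling, in which the Klf proteins can stand in for one another in part, and which is taken down when cells leave the naive state. Zfp42, also called Rex1, is a zinc finger protein best known as a marker of that state. In serum and LIF several of these factors, Nanog among them, differ from cell to cell, which a bulk library averages, so fewer cells with a transcript and less of it per cell cannot be told apart here.

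Gene counts summed to 18789457 read pairs for wild type, and to 13620914 for 3C, 14662197 for 3D and 15479190 for 3M. Unmapped read pairs were 14.5% of the total in wild type and from 21.0% to 23.0% in the clones. *Morc3* had 161 CPM (read pairs per gene scaled to library size, with edgeR's TMM factors) in wild type and from 497 to 655 in the clones, where transgene and endogenous reads are counted together. With 1 wild-type library the spread of each test comes from the clones, and wild type was assumed to vary as they do. An exact permutation test over the 4 libraries cannot go below p = 0.25 for any gene. One gene of 13267 tested, *Ddx3y* on the Y chromosome, passed edgeR's quasi-likelihood test at an adjusted p of 0.01, with 922 read pairs in wild type against 5, 0 and 1 in 3C, 3D and 3M. The genes of chromosome 14 were shifted up in every clone, by a median of 0.34 to 0.35 on the log2 scale, while chromosome 13 stood at 0.48 in both 3C and 3M and at 0.03 in 3D. The medians of the other 17 autosomes lay between -0.07 and 0.03. *Klf5* is the only one of the factors on either chromosome.

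All 10 factors were well expressed in every library, and no difference between rescue and wild type passed the adjusted test. Together the 10 factors took 5022 CPM in wild type against 5414, 5985 and 5506 CPM in 3C, 3D and 3M, and no factor fell below 152 CPM in any library. None of the 10 passed edgeR at an adjusted p of 0.01, where 0.00754% of all genes tested did. At an unadjusted p under 0.05, 3 of the 10 (*Nanog*, *Klf5* and *Tbx3*) were higher in rescue, where 5.92% of all genes were, and 0 of the 10 were lower, where 4.42% were. All clones stood above wild type for 6 of the 10 (*Nanog*, *Klf5*, *Tbx3*, *Klf2*, *Tfcp2l1* and *Esrrb*), against 28.7% of all genes, and below it for 1 (*Pou5f1*), against 28.4%. The median log2 fold change of the factors was 0.17 (0.10 without 3D), beside 0.0051 over all genes tested, and 9 of the 10 were under 0.5 in size, as were 85.8% of all genes. Clone by clone, the median difference of the factors from wild type was 0.04 in 3C, 0.25 in 3D and 0.17 in 3M. Without 3C, 5 factors were higher at an unadjusted p under 0.05, where 5.92% of all genes were. Without 3D, 4 were higher, where 11.2% of all genes were, and 1 (*Klf4*) was lower, where 7.44% were. Both remaining clones, 3C and 3M, were below wild type for 3 of the 10 and for 37.7% of all genes. Limma-voom called none of the 10 either, and DESeq2 called 1, *Klf5*, where it called 0.563% of the genes with an adjusted p as higher.

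**Figure D1:**
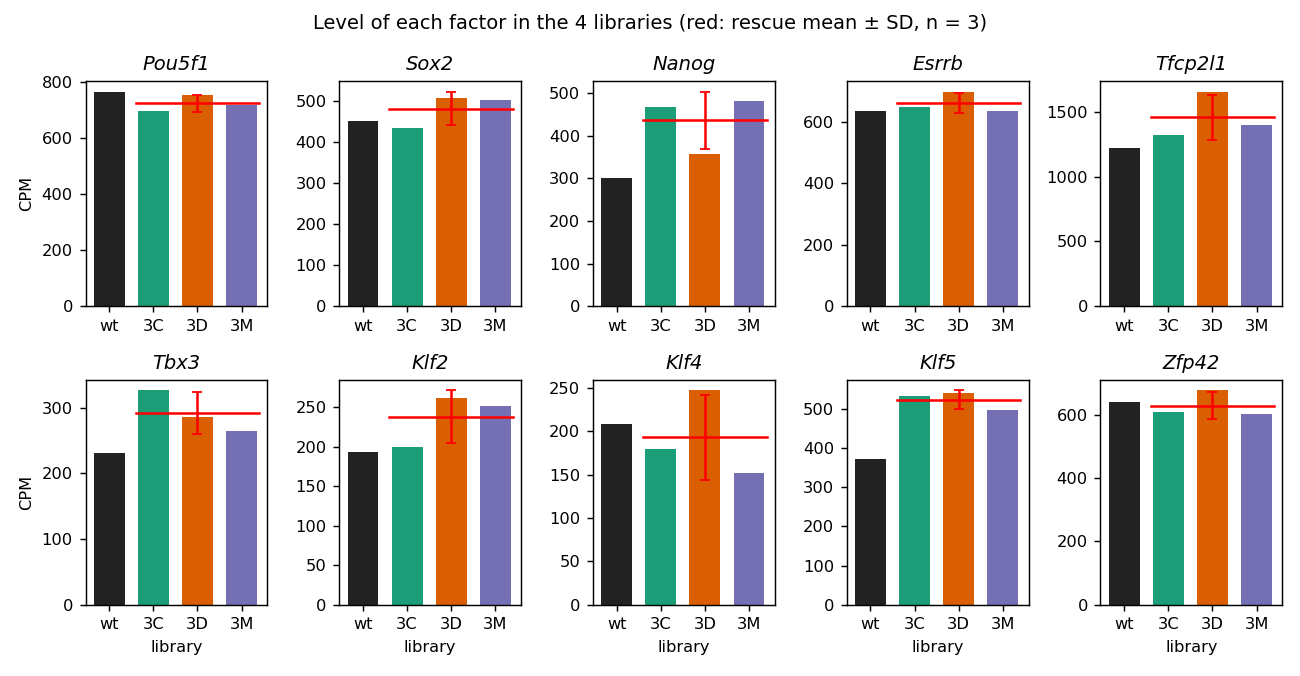
CPM (read pairs scaled to library size, axis from 0) of each of the 10 factors in the wild-type library and the 3 rescue clones, 1 bar per library, with the rescue mean ± SD (n = 3) in red. *Nanog* and *Klf5* have their wild-type bars, at 300 and 372 CPM, below those of all clones, while *Klf4* lies on both sides of its wild-type level.

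The core pair differed little from wild type. *Pou5f1* (chr17:35506032-35510777, plus strand, mm10), which encodes the POU factor Oct4, had 766 CPM in wild type against 698, 756 and 720 CPM in 3C, 3D and 3M. All clones lay below wild type, and 3D came within counting error of it, at a ratio of 0.986 (95% interval 0.962 to 1.01). The log2 fold change was -0.08 (SE 0.07, 95% interval -0.24 to 0.08), with an adjusted p of 0.702 in edgeR. *Sox2* (chr3:34649995-34652461, plus strand) encodes its high-mobility-group partner. It had 452 CPM in wild type against 435, 507 and 503 CPM in the clones. Clone 3C was therefore below wild type and the other two were above it, with a log2 fold change of 0.09 (SE 0.10, interval -0.16 to 0.35, edgeR adjusted p of 0.784). *Sox2* lies inside the long noncoding gene *Sox2ot* on the same strand, to which 59 read pairs were assigned in wild type and from 46 to 67 in the clones, and a pair that fits both genes is counted for neither.

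*Zfp42*, a classical target of the Oct4 and Sox2 pair, had the smallest log2 fold change of the 10 in size. The gene (chr8:43295067-43307009, minus strand) had 641 CPM in wild type against 608, 677 and 603 CPM in 3C, 3D and 3M. Only 3D was above wild type, and the log2 fold change of -0.03 (SE 0.08, interval -0.24 to 0.18) had an edgeR adjusted p of 0.938. The clones lay on both sides of wild type, each beyond counting error, at ratios of 0.95, 1.06 and 0.94 in 3C, 3D and 3M.

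Sequence upstream of the start site was at hand for 8 of the 10 genes (RefSeq, GRCm38.p6, the assembly of mm10), not for *Klf5* and *Tbx3*. In the 230 bases from -250 to -21, 4 motifs were searched on both strands: the octamer TTTGCAT of POU factors, ACAATG of Sox factors, AAGGTCA of Esrrb and its relatives, and GGGNGTG of Klf factors. The octamer was found upstream of 3 genes, *Nanog*, *Sox2* and *Zfp42*, and of 3.81% of 27025 promoters. These 3 are shown because they carry the letters that Pou5f1 binds, read 5' to 3' on the gene's own strand with every motif match in capitals.
Nanog, chr6:122707239-122707468, plus strand: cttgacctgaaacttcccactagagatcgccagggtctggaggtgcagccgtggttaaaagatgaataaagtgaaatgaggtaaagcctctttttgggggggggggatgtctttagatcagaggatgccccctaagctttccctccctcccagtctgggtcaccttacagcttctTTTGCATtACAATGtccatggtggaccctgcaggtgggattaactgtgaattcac
Sox2, chr3:34649745-34649974, plus strand: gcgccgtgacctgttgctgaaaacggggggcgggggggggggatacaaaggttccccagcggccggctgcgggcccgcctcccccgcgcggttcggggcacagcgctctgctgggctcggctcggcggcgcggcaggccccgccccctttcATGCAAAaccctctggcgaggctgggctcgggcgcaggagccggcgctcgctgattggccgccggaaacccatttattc
Zfp42, chr8:43307030-43307259, minus strand: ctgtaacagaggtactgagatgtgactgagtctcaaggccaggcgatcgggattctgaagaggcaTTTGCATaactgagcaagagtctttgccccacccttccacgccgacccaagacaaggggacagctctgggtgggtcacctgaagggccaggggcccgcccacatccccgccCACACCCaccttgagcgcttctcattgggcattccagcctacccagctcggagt
In *Nanog* the octamer is followed after a single base by the Sox motif, the arrangement of a joint Oct4 and Sox2 site, and *Nanog* was the only gene of the 8 with that Sox motif, which 10.4% of all promoters hold. In *Sox2* the octamer stands on the opposite strand. In *Zfp42* it stands upstream of a match to the Klf motif on the opposite strand. The Klf motif was found upstream of 4 of the 8 genes (*Pou5f1*, *Esrrb*, *Tfcp2l1* and *Zfp42*) and of 23.9% of all promoters, and the Esrrb motif of none of the 8 and 3.81% of all promoters. The matches describe letters in this window and say nothing of binding in these cells.

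*Nanog*, which encodes the homeobox factor that keeps ES cells from differentiating, had the largest difference of the 10. The gene (chr6:122707489-122714633, plus strand) had 5715 read pairs in wild type against 6309, 5212 and 7450 in 3C, 3D and 3M, from smaller libraries, or 300 CPM in wild type against 468, 358 and 481 CPM. All clones were above wild type, 3C and 3M by ratios of 1.56 and 1.60 and 3D by 1.20. The mean of the clones was 436 ± 67.4 CPM (SD, n = 3). The log2 fold change was 0.54 (SE 0.17, interval 0.11 to 0.97), at an unadjusted p of 0.0227 and an adjusted p of 0.405 in edgeR. The median of the other chromosome 6 genes was within 0.02 of wild type in each clone, and the 23 tested genes within 2 Mb of *Nanog* had medians of -0.11, 0.02 and -0.01 in 3C, 3D and 3M. Clones 3C and 3M share the chromosome 13 shift, and a fit without 3D takes its spread from these 2 clones. The call depended on clone 3D. Without it *Nanog* had a log2 fold change of 0.66 (SE 0.07) and an edgeR adjusted p of 0.000124, and 2 of the 10 factors, *Nanog* and *Klf5*, were called higher, in a fit that called 2.51% of all genes higher.

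**Figure D2:**
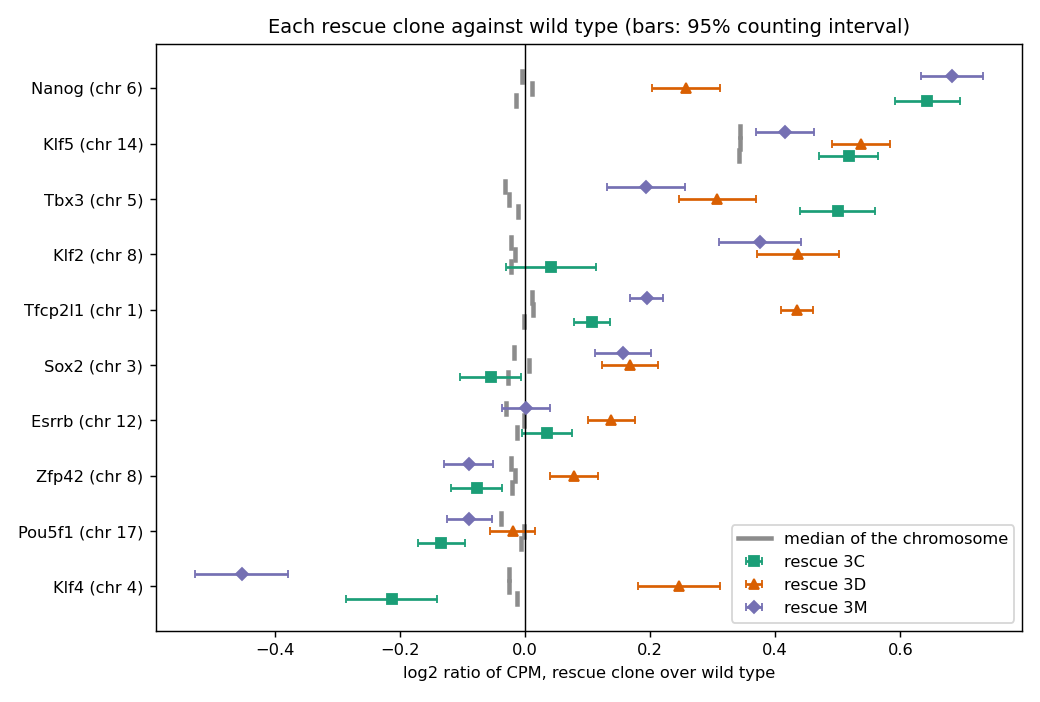
Log2 ratio of CPM in each rescue clone over wild type for the 10 factors (horizontal axis), ordered by fold change, with 95% counting intervals as bars and the median of all other tested genes on the same chromosome in that clone as a grey tick. *Klf5* is the only factor whose chromosome median is away from 0, at 0.34 in each clone, and the points of *Klf4* lie on either side of 0.

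Esrrb, Tfcp2l1 and Tbx3 are the other network members outside the Klf family. *Esrrb* (chr12:86361117-86521628, plus strand), an orphan nuclear receptor gene, had 633 CPM in wild type against 649, 697 and 634 CPM in 3C, 3D and 3M. The clones were at or just above wild type, and the counting intervals of 3C and 3M included a ratio of 1. Its log2 fold change was 0.06 (SE 0.07, interval -0.12 to 0.24, edgeR adjusted p of 0.811). *Tfcp2l1* (chr1:118627923-118685168, plus strand), a CP2 family gene downstream of LIF and Stat3, had the highest CPM of the 10, with 1225 in wild type against 1319, 1655 and 1402 in the clones. Each clone exceeded wild type beyond counting error, 3D the most, by a ratio of 1.35 (interval 1.33 to 1.38). The log2 fold change of 0.25 (SE 0.13, interval -0.07 to 0.57) had an edgeR adjusted p of 0.559, and without 3D it was 0.15.

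*Tbx3* (chr5:119670534-119684724, plus strand), a T-box gene, had 231 CPM in wild type against 326, 285 and 264 CPM in 3C, 3D and 3M. All clones lay above wild type, and 3C was the highest clone and 3M the lowest. Its log2 fold change of 0.34 (SE 0.12, interval 0.03 to 0.65) reached an unadjusted p of 0.0368 and an edgeR adjusted p of 0.448. Reads of the opposite strand at *Tbx3*, where antisense genes are annotated, were 15 in wild type and from 5 to 8 in the clones, or between 0.114% and 0.341% of those on its own strand.

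The 3 Klf genes encode zinc finger factors of overlapping function. *Klf5* (chr14:99298691-99313412, plus strand) had 7095 read pairs in wild type against 7177, 7856 and 7687 in 3C, 3D and 3M, or 372 CPM against 532, 540 and 496 CPM. The clones stood close together, at 523 ± 23.4 CPM (SD, n = 3), and well above wild type. The log2 fold change was 0.49 (SE 0.07, interval 0.31 to 0.67), with the smallest p of the 10, 0.000689 before and 0.189 after adjustment in edgeR. DESeq2 gave it an adjusted p of 0.00593, and edgeR without 3D one of 0.00158. *Klf5* lies on chromosome 14, whose other 464 tested genes stood above wild type by medians of 0.34, 0.34 and 0.34 in the clones. Relative to these medians *Klf5* was higher by 0.18, 0.19 and 0.07, and 77.8%, 76.5% and 62.5% of the chromosome's genes lay below it. Only 5 tested genes lie within 2 Mb of it, with medians of 0.16, 0.31 and 0.31. The part of the whole-chromosome shift in the *Klf5* difference was not tested.

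*Klf2* (chr8:72319062-72321654, plus strand) had 194 CPM in wild type against 199, 262 and 252 CPM in 3C, 3D and 3M. Clone 3C was within counting error of wild type, at a ratio of 1.03 (interval 0.979 to 1.08), while 3D and 3M were above it by 1.35 and 1.30. The log2 fold change was 0.29 (SE 0.16, interval -0.10 to 0.69, edgeR adjusted p of 0.569). *Klf4* (chr4:55527137-55532475, minus strand), the Klf factor best known from reprogramming, differed most among the clones. It had 209 CPM in wild type against 180, 247 and 152 CPM in 3C, 3D and 3M, so 3C and 3M were below wild type and 3D was above it, each beyond counting error. Its log2 fold change of -0.11 carried an SE of 0.25 (interval -0.74 to 0.51, edgeR adjusted p of 0.910), and without 3M it turned to 0.03. Without 3D it was -0.33, at an edgeR adjusted p of 0.0522.

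Per kb of transcript, the scale on which genes can be compared, the Klf genes together had 285 CPM per kb in wild type against 326, 385 and 335 in 3C, 3D and 3M. *Klf4* supplied 24.2% of this in wild type against 18.2%, 21.2% and 15.0% in the clones. *Klf5* supplied 39.0% in wild type against 48.7%, 41.9% and 44.2% in the clones. The share of *Klf2* was 36.8% in wild type and from 33.1% to 40.7% in the clones, on both sides of wild type. These shares take the longest coding transcript as the length. With the union of all exons instead, *Klf5* had a mean of 93.3 CPM per kb over the libraries, below *Klf2* at 123. The shares were not recomputed on that length.

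Ratios between factors within a library do not depend on how the libraries were scaled. The ratio of read pairs to *Pou5f1* was above wild type in all clones for 7 of the 9 other factors, with *Klf4* and *Zfp42* the exceptions, and for 40.1% of all other tested genes. *Pou5f1* itself lay below wild type in every clone, which raises each ratio to it, for the factors and for all other genes alike. The difference between the factors and the other genes in this count was not tested. For *Nanog* it was 0.391 in wild type against 0.670, 0.474 and 0.668 in 3C, 3D and 3M. For *Sox2* it was 0.589 in wild type against 0.622, 0.671 and 0.699 in the clones, all of them higher. The ratio of *Zfp42* to *Pou5f1* was 0.837 in wild type against 0.870, 0.896 and 0.837 in the clones. A wide contrast was that of *Klf4* to *Nanog*, with 0.696 in wild type, 0.691 in 3D, and 0.385 and 0.317 in 3C and 3M. The counting intervals of wild type (0.669 to 0.725) and 3D (0.662 to 0.721) overlapped and those of 3C and 3M lay far below. The pair was chosen after the values were seen, and no test was made of it.

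**Figure D3:**
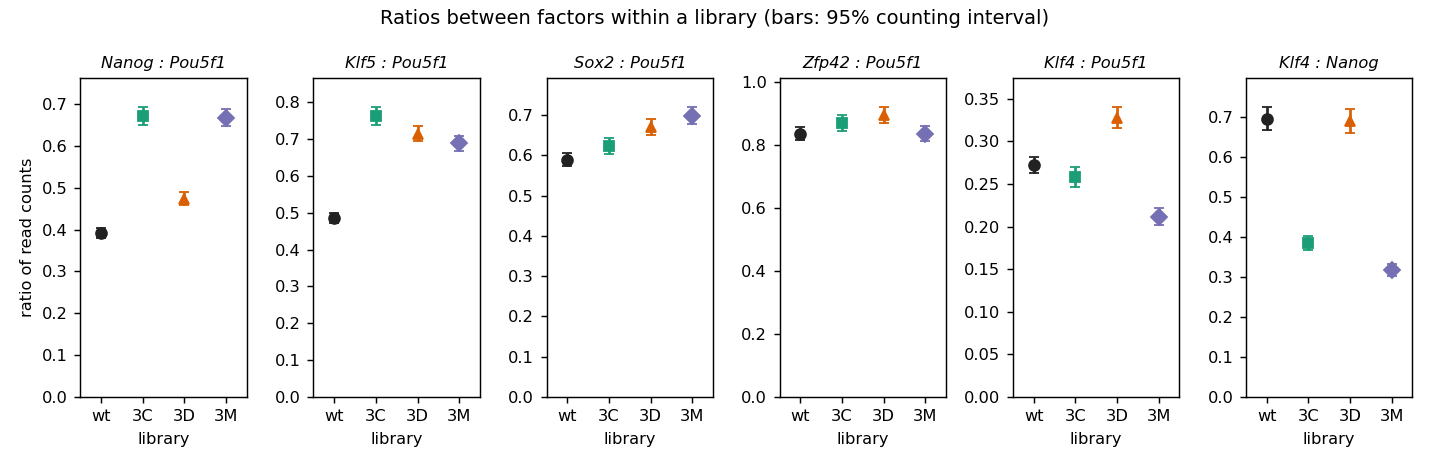
Ratio of read counts between pairs of factors (vertical axes, each from 0) in wild type and the 3 rescue clones, with 95% counting intervals. The ratio of *Nanog* to *Pou5f1* is higher than the wild-type value of 0.391 in every clone, and that of *Klf4* to *Nanog* is 0.696 in wild type, 0.691 in 3D and lower in 3C (0.385) and 3M (0.317).

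The factors also differed in how far the clones stood from each other. The coefficient of variation (CV) between the 3 clones was 4.0% for *Pou5f1*, 4.47% for *Klf5* and 4.97% for *Esrrb*. It rose through *Zfp42* (6.61%) and *Sox2* (8.48%) to *Tbx3* (10.9%), *Tfcp2l1* (12.0%), *Klf2* (14.1%) and *Nanog* (15.5%), and was widest for *Klf4*, at 25.3%. Counting error alone gives between 0.691% and 1.92% at these depths. Among the 892 tested genes with a mean CPM in the range of the factors, the median CV was 3.77% and the 90th percentile 10.5%. All 10 factors were above that median and 5 above the 90th percentile. The highest clone exceeded the lowest by 1.62-fold for *Klf4*, 1.34-fold for *Nanog* and 1.08-fold for *Pou5f1*. The spread includes everything that differs between clones, the chromosome 13 shift of 3C and 3M among them, and the part of that shift was not tested.

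**Figure D4:**
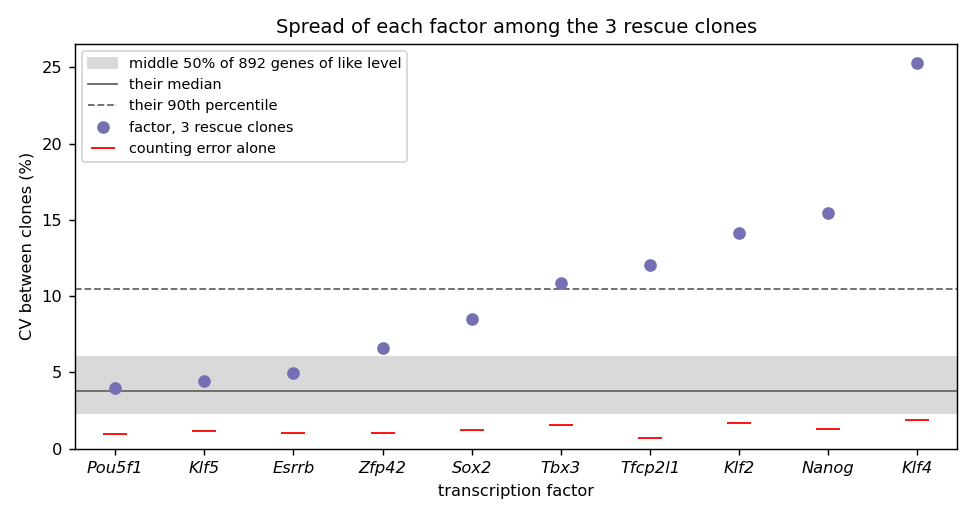
CV in percent (vertical axis, from 0) of each factor's CPM among the 3 rescue clones, as points ordered from lowest to highest, with the counting error alone as red dashes and, in grey, the middle 50% of 892 tested genes with a mean CPM in the factors' range. *Klf4* (25.3%), *Nanog* (15.5%), *Klf2*, *Tfcp2l1* and *Tbx3* lie above the 90th percentile of those genes, 10.5%.

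Over the pattern of the 3 clone differences from wild type on the log2 CPM scale, the tested genes nearest to the 2 factors with the widest clone range were as follows. For *Klf4*, which differed by -0.21, 0.25 and -0.45 in 3C, 3D and 3M, they were *Lix1l*, *A230072C01Rik* and *Ccnjl*, at Euclidean distances of 0.05, 0.08 and 0.08. *Nanog* differed by 0.64, 0.26 and 0.68, and its nearest genes were *Map6d1*, *Kdm1b* and *Zfp273*, at 0.04, 0.05 and 0.06, of which *Kdm1b* and *Zfp273* lie on chromosome 13. No other factor of the 10 was among the 3 nearest genes of any factor.

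On the scale of CPM per kb of the longest coding transcript, *Pou5f1* was the most abundant factor, with 563 in wild type and from 513 to 555 in the clones. *Zfp42* followed, with between 328 and 369 over the 4 libraries. Neither overlapped its neighbour in this order. *Sox2* (211 to 247), *Nanog* (136 to 217), *Esrrb* (147 to 162), *Tfcp2l1* (132 to 179), *Klf5* (111 to 161) and *Klf2* (105 to 142) came next, and each of these 6 overlapped its neighbours among them. *Klf4* (50.3 to 81.7) and *Tbx3* (46.3 to 65.5) were the least abundant and overlapped each other only. Still, *Tbx3* exceeded 91.1% of the tested coding genes per kb, and *Pou5f1* 99.6%. With the union of all exons as the length, *Esrrb* and *Klf5* dropped by 2 and 1 places.

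Within their gene families the factors were the dominant members in these cells. *Pou5f1* made up between 94.7% and 95.5% of the Pou family's level per kb. *Tbx3* made up between 96.8% and 97.7% of that of the *Tbx* genes with *T*. *Esrrb* made up between 97.5% and 98.3% of that of the estrogen-related receptors. *Sox2* was between 80.2% and 82.5% of the Sox family, and the next Sox gene, *Sox13*, had a mean of 18.2 CPM per kb. The 3 Klf factors were 67.7% of the Klf family in wild type and from 69.1% to 72.6% in the clones, with *Klf10* (32.6) and *Klf9* (27.3 CPM per kb) next. *Tfcp2l1* was 80.0% of the summed level of *Tfcp2*, *Tfcp2l1* and *Ubp1* in wild type and from 81.9% to 84.4% in the clones. Its paralog *Ubp1* had a log2 fold change of -0.04 (SE 0.08, edgeR adjusted p of 0.885). *Pou4f2*, a Pou gene known from neurons, had 4.51 CPM in wild type against 27.7, 16.2 and 22.7 CPM in the clones, which gave a log2 fold change of 2.30 (SE 0.36) at an adjusted p of 0.189 in edgeR and 2.26e-07 in DESeq2.

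Other genes of the naive and general ES cell programme were read from a list of 36 genes, of which 35 were tested and *Dppa1* was at 0 in every library. None passed edgeR's adjusted p, and DESeq2 called 2 higher, *Jam2* and *Spp1* (adjusted p of 0.000827). Of all genes with an adjusted p, DESeq2 called 0.563% higher. In all clones, 11 of the list lay above wild type and 5 below, against 28.7% and 28.4% of all genes. At an unadjusted p under 0.05 in edgeR, 4 were higher (*Jam2*, *Spp1*, *Gdf3* and *Fgf4*) and 1, *Lin28a*, was lower. Over all genes tested, 5.92% were higher and 4.42% lower. The list's median log2 fold change was 0.05. *Jam2*, a junctional adhesion molecule gene, had 103 CPM in wild type against 173, 177 and 146 CPM in 3C, 3D and 3M, which gave a log2 fold change of 0.68 (SE 0.13, adjusted p of 0.202 in edgeR and 0.00567 in DESeq2). *Prdm14*, a regulator of the naive state, had 17.5 CPM in wild type against 19.7, 31.9 and 26.1 CPM in the clones, which gave a log2 fold change of 0.57 (SE 0.27). *Lin28a*, an RNA-binding protein gene of pluripotent cells, was at 350 CPM in wild type against 286, 291 and 315 CPM in the clones, which gave a log2 fold change of -0.24 (SE 0.08, edgeR adjusted p of 0.409).

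The 16 tested genes of a list of factors needed to leave the naive state had a median of -0.09. In all clones, 9 lay below wild type and 2 above, against 28.4% and 28.7% of all genes. At an unadjusted p under 0.05 in edgeR, 0 were lower or higher, against 4.42% and 5.92% of all genes. *Tcf7l1*, the repressor of naive genes downstream of Wnt, had a log2 fold change of 0.28 (SE 0.33), and *Foxp1* of -0.38 (SE 0.19). Of 18 genes of the formative and primed epiblast, 16 were tested, with a median of -0.04, and none passed edgeR's adjusted p. In all clones, 5 lay below wild type and 3 above, against 28.4% and 28.7% of all genes. At an unadjusted p under 0.05 in edgeR, 3 were lower and 1 higher, against 4.42% and 5.92% of all genes. *Dnmt3a*, a de novo DNA methyltransferase gene, was at 167 CPM in wild type against 78.3, 63.3 and 62.4 CPM in the clones, for a log2 fold change of -1.30 (SE 0.13, adjusted p of 0.108 in edgeR and 1.30e-09 in DESeq2). *Dnmt3b* had -0.43 (SE 0.18), *Pou3f1*, which encodes the Oct6 factor of the formative state, -0.61 (SE 0.18), and *Otx2* 0.08 (SE 0.95). Of the genes above wild type in all clones, *Grhl2* rose the most. It had 29.9 CPM in wild type against 33.0, 53.0 and 68.4 CPM in 3C, 3D and 3M. Its log2 fold change was 0.79 (SE 0.38, edgeR adjusted p of 0.547), and that of *Sall2* was 0.44 (SE 0.27). The formative factor *Foxd3* had 0.60 (SE 0.12), at an edgeR adjusted p of 0.209, and *Fgf5* was too low to be tested.

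The short marker sets of other cells summed to less than that of pluripotent cells in every library. The markers of pluripotent cells (*Pou5f1*, *Sox2*, *Nanog*, *Sall4*, *Dppa5a* and *Tdgf1*) summed to 3095 CPM in wild type and 3214 to 3366 CPM in the clones. Those of primitive endoderm summed to 7.76 CPM in wild type and 7.08 to 11.3 in the clones, those of trophectoderm to 2.88 and 2.60 to 7.97, and those of mesoderm to 2.99 and 2.47 to 3.36. Feeder fibroblast markers summed to 32.9 CPM in wild type and 20.4 to 45.0 in the clones, mostly from *Thy1*, at 31.7 CPM in wild type. Of the 7 markers, *Col3a1*, *Lum* and *Dcn* were at 0 in every library, and *Col1a1* lay between 0.71 and 1.51 CPM. Among the short sets, markers of the formative or primed epiblast had the highest sum outside the pluripotent set. It was 251 CPM in wild type and 166 to 205 in the clones, all below wild type. Most of this sum was *Dnmt3b*, at 232 CPM in wild type against 196, 140 and 180 CPM in 3C, 3D and 3M. Of the 5 tested markers, 2 lay below wild type in all clones (*Dnmt3b* and *Pou3f1*) and 0 above, against 28.4% and 28.7% of all genes. *Otx2* lay on both sides, at 6.50 CPM in wild type against 1.71, 14.7 and 4.13 CPM. Neuroectoderm markers summed to 115 CPM in wild type and 81.5 to 113 in the clones. The markers of the two-cell-like state reached at most 0.148 CPM, and 5 of the 6 were at 0 in every library. Sums over longer lists of lineage genes were larger for some cell types. Primitive endoderm genes summed to 729 CPM in wild type and 737 to 909 in the clones. Most of the wild-type sum came from *Lama1*, *Sparc* and *Lamb1*, at 310, 217 and 101 CPM. Fibroblast genes summed to 2448 CPM in wild type and 1810.5 to 2557 in the clones, mostly from *Fn1*, at 2371 CPM in wild type. These longer lists held few genes with enough counts to be tested. At an unadjusted p under 0.05 in edgeR, 5.92% of all tested genes were higher and 4.42% lower. Of 16 primitive endoderm genes 12 were tested, with a median of -0.03 and 1, *Sparc*, higher at an unadjusted p under 0.05. *Sparc*, a matrix protein gene, had 217 CPM in wild type against 346, 286 and 307 CPM in the clones. Of 10 trophectoderm genes 6 were tested, with a median of 0.85 and 1 higher, *Gata2*, from 68 read pairs in wild type against 69, 113 and 134 in 3C, 3D and 3M. Of 10 mesoderm genes 3 were tested, with a median of 0.79 and 1 higher, *Evx1*, which had 1 read pair in wild type against 9, 5 and 19. Of 10 neuroectoderm genes 4 were tested, with a median of 0.26 and 1 lower, the tubulin gene *Tubb3*, at 73.8 CPM in wild type against 49.3, 40.8 and 40.5 CPM (adjusted p of 0.191 in edgeR and 0.00978 in DESeq2). The 5 tested of 11 fibroblast genes had a median of -0.10, and none of 15 genes of the two-cell-like state could be tested. None of these lists held a gene past edgeR's adjusted p.

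**Figure D5:**
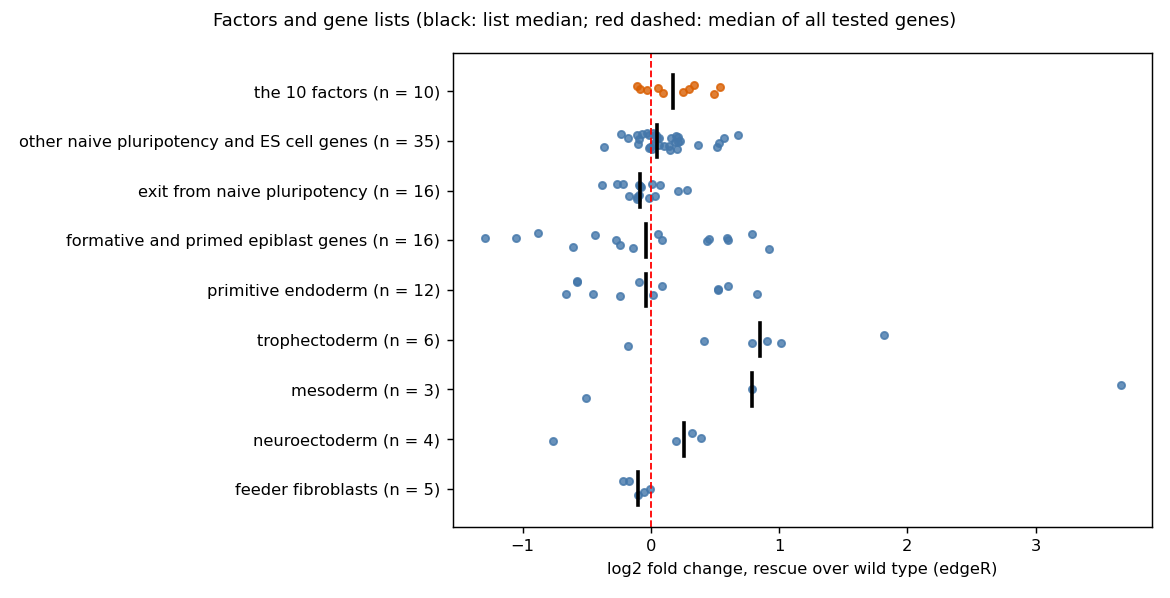
Log2 fold change (rescue over wild type, edgeR, horizontal axis) of every tested gene of the 10 factors and of each gene list, 1 point per gene, with the list's median as a black bar and the median of all tested genes (0.0051) as a red dashed line. The factors span -0.11 to 0.54 around a median of 0.17, and the other naive genes scatter around a median of 0.05.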

How the data were processed

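RNA-seq counts of 4 mouse ES cell libraries were used, 1 wild type and 3 Morc3 rescue clones, grouped by the genotype in the labels. The authors aligned the reads to mm10 using STAR, and they deposited raw counts of unique pairs per gene for each library, without normalization, in an unstranded column and 1 for each strand. Which annotation was counted is not given in the sources. The reverse-strand column was used, since the kit is directional, and the forward strand held between 1.26% and 1.31% as many. Pairs on no gene (unmapped, multimapping, unassigned or ambiguous, between 47.3% and 54.9% of all) stayed out of library sizes and tests, so reads shared with pseudogenes of *Nanog*, *Zfp42* or *Pou5f1* are not counted.

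Counts were tested over all genes with edgeR 4.0.16 (quasi-likelihood, legacy off, TMM, filterByExpr) in R 4.3.3, at the study's adjusted p of 0.01 (Benjamini-Hochberg). The SE is the log2 fold change over the square root of F, log2 CPM used a prior count of 2, and clone ratios and count ratios carry exact 95% binomial intervals, which cover counting error only. Alternatives were DESeq2 1.42.0 (on the same filtered genes), limma-voom 3.58.1 and those given under the dependence on processing. The steps were tested on simulated counts. Replicates are clones from 1 ko line. Members, lists and tests were chosen with earlier results of these data known. All factors were named, with *Morc3*, called genes, from each list up to 3 genes per direction that were above, or below, wild type in every clone, the 3 nearest genes of the 3 factors with the widest clone range (those of *Klf2* are not reported here), and the leading paralogs. *Spp1*, *Gdf3*, *Fgf4*, *Tcf7l1*, *Otx2*, *Fgf5* and *Fn1* were named after their values were seen. Gene positions are RefSeq GRCm38.p6. Lengths are GENCODE M21.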

Additional observations from a re-analysis of the deposited data

How the results depend on the processing

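Of 260 values of single factors (fold changes and clone differences) that were recomputed, 255 counted as unchanged. A fold change did so if it kept both direction and call. A clone difference did so if it moved by less than the SD among the clones. With each clone left out, the log2 fold change of *Klf4* ran from -0.33 to 0.034 and that of *Zfp42* from -0.084 to 0.0021, in both cases positive without 3M only. DESeq2 called 65 genes and 1 factor, limma-voom 0 genes, and a filter of 10 counts in every library 0 genes, since *Ddx3y* was then not tested. With each clone left out in turn, between 0 and 420 genes and between 0 and 2 factors passed an adjusted p of 0.01. Between 2 and 5 factors had an unadjusted p under 0.05, and between 1 and 3 lay below wild type in all remaining clones. The high ends came without 3D, apart from the 5 at an unadjusted p, which were also reached without 3C. The cause was not tested. At an unadjusted p under 0.05, 464 of all 13176 genes tested were higher and 287 lower without 3M. Without 3C these were 783 and 556 of 13233, and without 3D 1480 and 985 of 13243. Below wild type in both remaining clones lay 4386, 4722 and 4988 genes without 3M, 3C and 3D. The scaling alternatives, the unstranded column and the absence of a low-count filter changed none of the calls of the factors. With the union of exons as length, added after the data were seen, *Esrrb* moved to 116 and *Klf5* to 93.3 CPM per kb. With 1 wild-type library, its own spread could not be measured. No paired analysis was possible because the 2 groups share only replicate number 1 and wild type has 1 library.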
